A study of Mus musculus with 2 samples.

Results

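The Hes and Hey genes encode transcriptional repressors of the basic helix-loop-helix (bHLH) class that carry an Orange domain, and were examined as a family of 9 genes, namely Hes1, Hes2, Hes3, Hes5, Hes6, Hes7, Hey1, Hey2 and Heyl. The family was taken by name from 21631 protein-coding genes of RefSeq, build GRCm38, and a gene was counted as bearing Suz12 when a peak overlapped it or lay within 10 kb of it. Suz12, which PRC2 (Polycomb Repressive Complex 2) needs for its activity, was mapped by chromatin immunoprecipitation and sequencing in wild-type E14 mouse embryonic stem cells, differentiated for 72 h by 1 µM all-trans-retinoic acid in serum medium from which leukemia inhibitory factor was withdrawn. The series also holds a Suz12-KO library at 0 h, precipitated with the same anti-Suz12 antibody and not analysed here. The wild-type group is 1 library, so values carry no replicate error, no test was made, and a state before differentiation was not compared.

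PRC2 adds methyl groups to histone H3 and is found at the CpG-rich promoters of silent developmental genes. Many Hes and Hey genes are direct targets of Notch signalling, in which the cleaved receptor enters the nucleus and joins the DNA-binding protein RBPJ. Hes proteins such as Hes1 recruit corepressors such as the Groucho proteins and restrain genes that drive differentiation, among them the proneural bHLH genes. In embryonic tissue Hes1 and Hes5 are known for keeping neural progenitors undifferentiated, Hes7 for the oscillator that paces somite formation, and the Hey genes for heart and vessel development.

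Of the 9 genes, 5 had a Suz12 peak within 10 kb (55.6%, exact 95% binomial interval 21.2 to 86.3), against 15.9% of all protein-coding genes (3437 of 21631, 15.4 to 16.4). They were Hes2, Hes3, Hes5, Hey1 and Hey2, which is 3 of 6 Hes genes and 2 of 3 Hey genes, while Hes1, Hes6, Hes7 and Heyl had none. Each of the 5 was also overlapped by a peak, as were 12.3% of all protein-coding genes. Among genes between 1747 and 16315 bp long, the range of the family, 16.3% had a peak within 10 kb. The intervals cover counting error and treat genes as independent, and the depth of the library is unknown, so genes counted as lacking Suz12 can carry amounts under the authors' threshold.

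RefSeq promoter windows, which run from 250 bases before to 50 bases after an annotated start, matched 4 of the 9 genes, namely Hes5, Hey2, Hes6 and Hes7. Entries for Hes1, Hes2, Hes3, Hey1 and Heyl were missing. The windows are shown because the starts of Hes5 and Hey2 lay inside a Suz12 peak and those of Hes6 and Hes7 did not. Each is written from 5′ to 3′ on the strand of the gene, in GRCm38, with capitals marking GTGGGAA, the core letters bound by RBPJ, or its reverse complement TTCCCAC. Hes5 lies on the plus strand, chr4:154960673-154960972. Hey2 lies on the minus strand, chr10:30842734-30843033. Hes7 lies on the plus strand, chr11:69120203-69120502. Hes6, on the minus strand, has 2 windows, of which the one with more CpG dinucleotides is shown, chr1:91413173-91413472. The annotated starts of Hes5 (154960923), Hes7 (69120453) and this Hes6 window (91413222) lie inside the gene spans used here. Bases upstream of these starts can therefore belong to the gene span. The start of Hey2 (30842783) is the upper end of its span.
Hes5: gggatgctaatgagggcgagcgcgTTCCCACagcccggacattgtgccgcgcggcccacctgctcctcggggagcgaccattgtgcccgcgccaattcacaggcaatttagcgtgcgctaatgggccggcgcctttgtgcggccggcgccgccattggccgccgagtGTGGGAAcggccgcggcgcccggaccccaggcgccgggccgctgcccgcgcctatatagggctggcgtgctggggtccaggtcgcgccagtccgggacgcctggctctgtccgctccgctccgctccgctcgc
Hey2: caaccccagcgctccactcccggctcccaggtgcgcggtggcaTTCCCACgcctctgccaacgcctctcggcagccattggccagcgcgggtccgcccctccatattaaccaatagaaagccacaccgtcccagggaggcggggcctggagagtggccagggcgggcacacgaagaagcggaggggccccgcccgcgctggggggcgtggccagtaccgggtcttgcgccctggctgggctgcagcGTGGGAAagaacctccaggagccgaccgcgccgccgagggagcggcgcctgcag
Hes7: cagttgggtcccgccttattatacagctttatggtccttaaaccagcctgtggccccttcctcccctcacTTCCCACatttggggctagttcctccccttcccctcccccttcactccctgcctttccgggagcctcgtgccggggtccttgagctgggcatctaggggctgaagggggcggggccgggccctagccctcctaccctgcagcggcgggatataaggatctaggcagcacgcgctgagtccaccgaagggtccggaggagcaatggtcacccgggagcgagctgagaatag
Hes6: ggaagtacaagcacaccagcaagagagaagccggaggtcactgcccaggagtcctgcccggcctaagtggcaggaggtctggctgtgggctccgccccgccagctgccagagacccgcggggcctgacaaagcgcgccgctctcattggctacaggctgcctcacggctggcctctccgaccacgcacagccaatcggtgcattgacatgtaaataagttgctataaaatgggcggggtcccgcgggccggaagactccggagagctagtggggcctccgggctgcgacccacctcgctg

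Hes2 held the widest and highest-scoring peak of the family. The gene spans 3603 bp on GRCm38 chromosome 4 from 152158867 to 152162469. A peak of 4060 bp, from 152157807 to 152161866, began 1060 bp below the lower end of the gene and ended 603 bp short of the upper end. Peaks covered 83.3% of Hes2, a share reached by 0.892% of all protein-coding genes. Its deposited score was 3100, a value that 325 of the 3373 peaks share and that 30 exceed, so this score does not rank the peak among them. By width, 10.2% of all peaks were wider. A second, narrow peak of 1056 bp (score 213.54) lay 6207 bp away and overlapped the neighbouring gene Espn, which encodes an actin-bundling protein of hair cells.

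Hes3, a gene of early neural progenitors and of the boundary between midbrain and hindbrain, had the most peaks of the family. It spans 6662 bp of chromosome 4 from 152285250 to 152291911, 122780 bp beyond Hes2, with a single peak between them that lies within 10 kb of Hes3. Of its 3 peaks, those of 1864 bp (score 400.65) and 2146 bp (score 979.53) lay wholly inside the gene, and the latter ended 2 bp short of the upper end. The remaining peak, of 2046 bp (score 919.98), lay 1371 bp below the gene and overlapped Gpr153, an orphan receptor gene whose annotated span runs into that of Hes3. All 3 were of middling width, with between 39.2% and 49.4% of all peaks wider. Gaps of 1994 and 2026 bp separated them, and peaks joined across gaps of up to 3 kb gave a domain of 10076 bp, from 152281834 to 152291909. Peaks covered 60.2% of the gene, and the joined domain all but its last 2 bp. Of the 3437 genes with a peak within 10 kb, 6.90% had 3 or more.

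Hes5, an effector of Notch in neural stem cells, was the only member covered from end to end. The gene is the shortest of the family, 1747 bp of chromosome 4 from 154960626 to 154962372. Its single peak, of 3256 bp from 154959249 to 154962504 (score 2175.35), reached 1377 bp beyond the lower end and 132 bp beyond the upper end. The annotated start in the window shown lay near the middle of the peak, which extended 1674 bp upstream and 1581 bp downstream. All of the gene was covered, as in 0.527% of protein-coding genes, and 17.0% of all peaks were wider. The nearest other coding gene, Pank4, lay 1619 bp from the peak and was not overlapped.

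**Figure D1:**
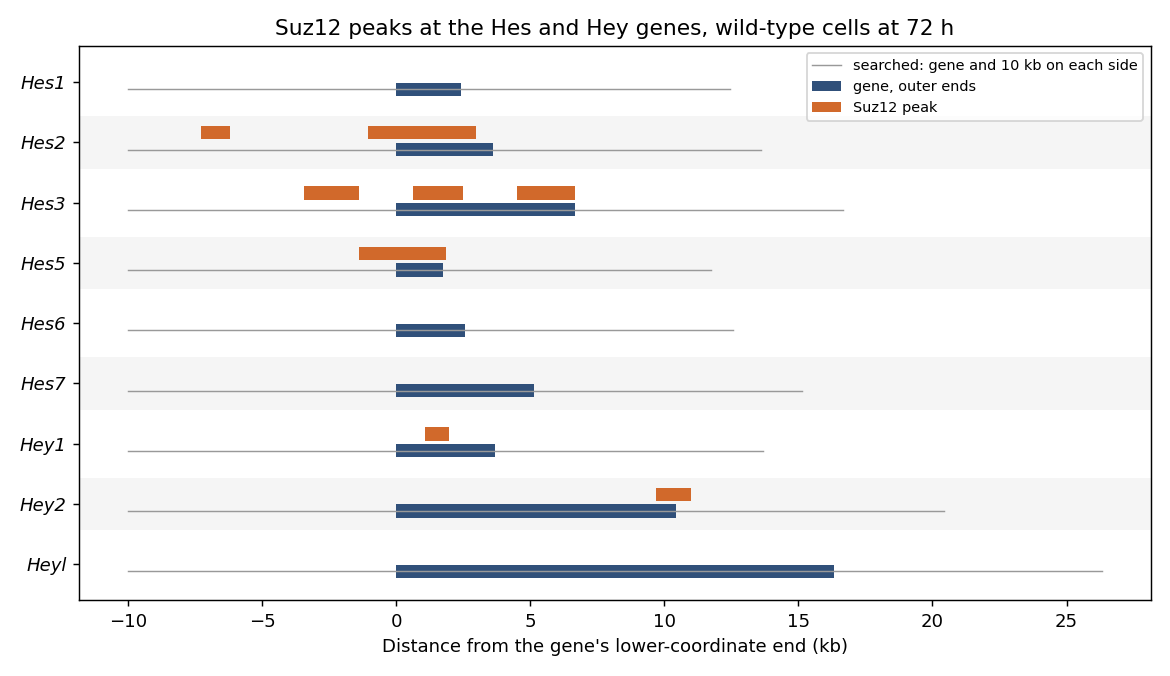
Map of the 9 genes (blue, between the outer ends that RefSeq gives) and the Suz12 peaks within 10 kb (orange), with distance in kb from the end of each gene that has the lower coordinate; strand is not drawn. Peaks take up most of Hes2, Hes3 and Hes5 and a small stretch of Hey1 and Hey2, and Hes1, Hes6, Hes7 and Heyl have none.

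The peaks of the Hey genes were narrower than those over Hes2, Hes3 and Hes5. Hey1, a repressor active in vessels and heart, spans 3680 bp of chromosome 3 from 8663359 to 8667038. Its peak of 883 bp (score 286.84), from 8664454 to 8665336, lay inside the gene, 1095 bp from the lower end and 1702 bp from the upper end, and touched neither. It was among the narrowest in the list, with 97.3% of all peaks wider, and covered 24.0% of the gene. The coding gene LOC115489673 overlaps the upper end of Hey1 and lay 1588 bp from the peak.

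Hey2, known for ventricular heart muscle and arterial identity, spans 10425 bp of chromosome 10 from 30832359 to 30842783. A peak of 1306 bp (score 191.65), from 30842050 to 30843355, covered its annotated start and extended 572 bp upstream and 733 bp downstream. This peak had the lowest score of the family, with 89.1% of all peaks scoring higher, and took up 7.04% of the gene. No other coding gene lay within 10 kb of Hey2. Hey1 and Hey2 dropped out of the count when only peaks at or above the median score of all peaks, 572.11, were used. This left 3 members, against 8.71% of all protein-coding genes. No interval was made for this smaller count, so whether it exceeds that share was not tested.

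The 8 peaks near members were 883 to 4060 bp wide and their median width was 1955 bp, against 1849 bp for all 3373 peaks. Of the 8, 5 were wider than the median of all peaks and 4 scored above it. By share of the gene covered by peaks as deposited, the order was Hes5, Hes2, Hes3, Hey1, Hey2, and with peaks joined across gaps of up to 3 kb Hes3 (100% after rounding) passed Hes2 (83.3%). With a single library, whether neighbours in this order differ could not be tested. Peaks covered a median of 5.19% of the 2656 protein-coding genes they overlapped, so Hey2 stood near that median and the other 4 above it. These shares depend on gene length, and the Hes genes with a peak are between 1747 and 6662 bp long.

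**Figure D2:**
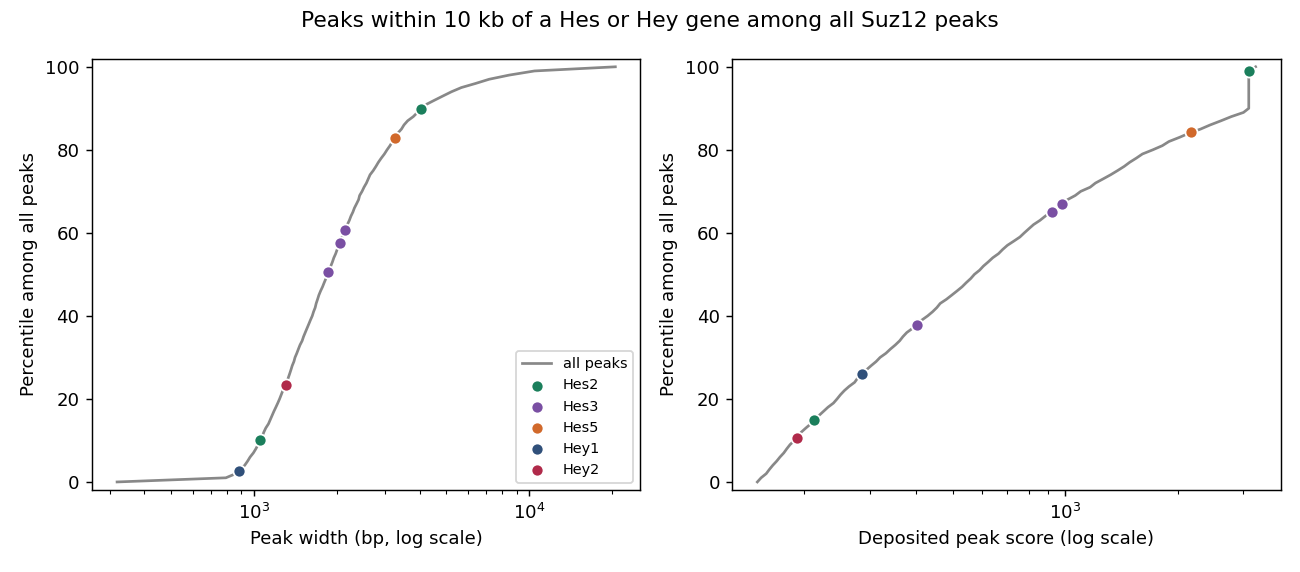
Width in bp (left) and deposited score (right) of the 8 peaks near members, each as a point on the cumulative curve of all 3373 peaks (grey line, percentile on the vertical axis), both with logarithmic horizontal axes. The main peaks of Hes2 (4060 bp) and Hes5 (3256 bp) stand high on both curves, those of Hey1 and Hey2 low; the Hes2 point at score 3100 is drawn at the top of a step of tied values.

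The 4 members without a peak differed in how far the nearest one lay. Heyl, the third Hey gene, spans 16315 bp of chromosome 4 from 123233556 to 123249870, and its nearest peak, of 1989 bp (score 662.11) at the neighbouring nucleotidase gene Nt5c1a, was 30912 bp away. Hes6, which counteracts Hes1 and favours neuronal differentiation, lies on chromosome 1 from 91411483 to 91414038, and its nearest peak, of 925 bp (score 239.05) at Erfe, the gene of the hormone erythroferrone, was 44391 bp away. Hes7, on chromosome 11 from 69118906 to 69124054, was 111196 bp from a peak at Gucy2e, a guanylate cyclase gene of the retina. These 3 genes lay closer to a peak than the median protein-coding gene, whose nearest peak was 178651 bp away.

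Hes1, the best studied Notch effector of the family, lay farthest of all members from a peak. It spans 2440 bp of chromosome 16 from 30065357 to 30067796. The nearest peak, of 2215 bp (score 878.94) at the platelet glycoprotein gene Gp5, was 240164 bp away, and 56.5% of protein-coding genes had a nearer one. Among protein-coding genes without a peak within 10 kb the median distance was 255962 bp, so Hes1 lay somewhat nearer than that. No peak lay within 100 kb of Hes1 or Hes7, as for 61.9% of protein-coding genes. Counted to 1 Mb, Hes1 had 2 peaks and Hes7 had 13.

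**Figure D3:**
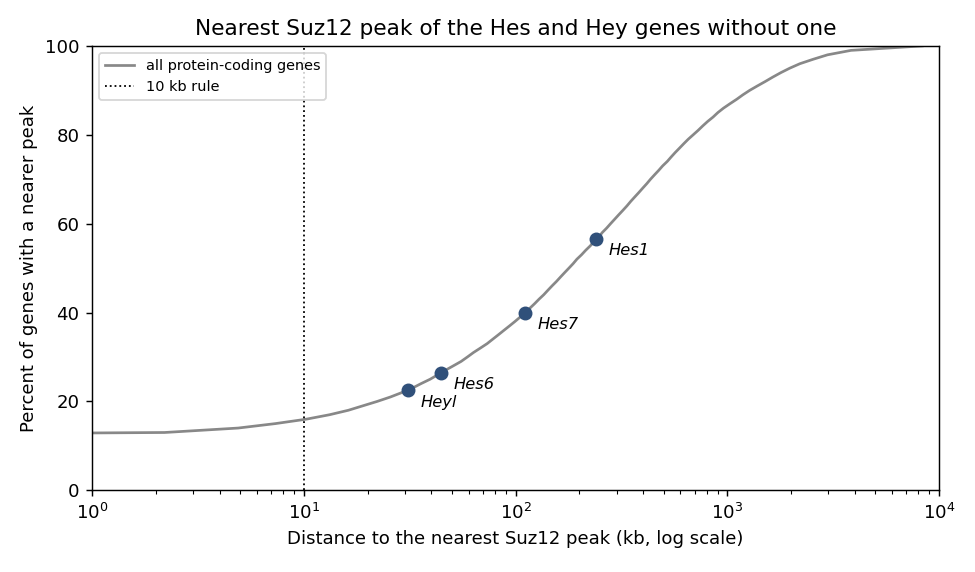
Distance in kb (logarithmic axis) from Heyl, Hes6, Hes7 and Hes1 to their nearest Suz12 peak, as points on the cumulative curve of all 21631 protein-coding genes (percent of genes with a nearer peak). Heyl, at 30912 bp, and Hes6, at 44391 bp, lie beyond the dotted line at 10 kb, and Hes1, at 240164 bp, is the farthest.

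Of the 9 genes, 4 sit on chromosome 4, and 3 of these, Hes2, Hes3 and Hes5, have a peak. Suz12 peaks were frequent around Hes2 and Hes3, with 6 and 5 peaks within 100 kb, and only 1.79% of protein-coding genes had 5 or more. Around Hes2 the others lay in Espn and its neighbour Tnfrsf25. The 2 peaks beyond 10 kb of Hes3 lay in Rnf207 and in Chd5, a chromatin remodeller gene of neurons. Hey1 and Hey2 stood apart from other peaks, with none within 100 kb except their own. Of the 9 other coding genes within 10 kb of a member, 3 were overlapped by a peak (Espn, Gpr153 and Nt5c1a), against 12.3% of all protein-coding genes. No interval was made for 3 of 9, and a difference from the 12.3% was not tested. The peak on Gpr153 and a peak on Espn are also counted above for Hes3 and Hes2, so these counts are not independent.

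The windows with a start inside a peak were richer in CpG dinucleotides than those without. Hes5 held 41 CpGs in 300 bases (72.7% G plus C, observed to expected ratio 1.04) and Hey2 held 29 (72.0%, 0.75). The 2 windows of Hes6 held 21 (65.0%, 0.66) and 14 (62.0%, 0.53), and that of Hes7 held 14 (63.0%, 0.47). Across 21045 windows of protein-coding genes, the median was 22 CpGs for the 1687 with a start inside a peak and 12 for the rest. Counted by gene, 8.57% of 17274 genes with a window had a start inside a peak, against 2 of the 4 members with a window. No interval was made for 2 of 4, and a difference from the 8.57% was not tested. Starts inside a peak made up 16.7% of windows with at least as many CpGs as Hes5, and 12.6% of those with at least as many as Hes7, so most windows this rich in CpG had no peak at the start.

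**Figure D4:**
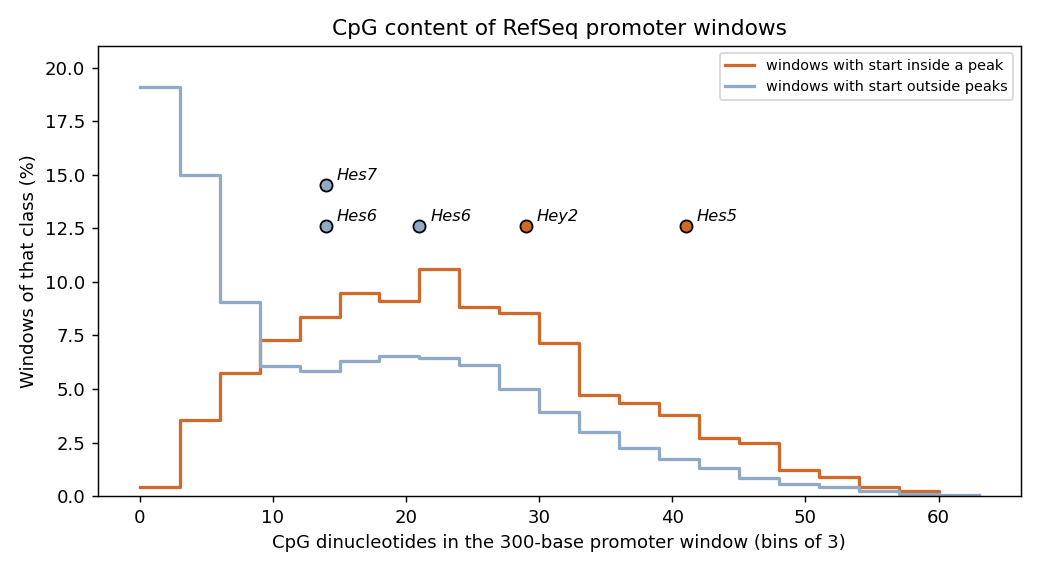
Number of CpG dinucleotides in 300-base promoter windows, in bins of 3, as a percentage of the windows with a start inside a Suz12 peak (orange line) or outside (blue line). Points mark the 5 windows of Hes5, Hey2, Hes6 and Hes7 by their CpG number, in the colour of their class; the height of a point has no meaning. Hes5, with 41, and Hey2, with 29, lie above the median of 22 of windows inside peaks.

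The RBPJ core letters GTGGGAA were found on either strand in 6.07% of all windows, and in 5.69% of those with a start inside a peak. Hes5 and Hey2 each held 2, in opposite orientations, a number reached by 0.261% of windows. Counting the start as base 1, the Hes5 cores began at -226 and -83, and those of Hey2 at -207 and -4, the latter reaching base 3. Hes7 held a single core, at -180, and the windows of Hes6 held none. The N-box CACNAG and the class C E-box CACGNG, letters to which Hes and Hey proteins are known to bind, were searched on both strands and occur in 41.8% and 31.7% of windows. Neither was found in the windows of Hes5 or Hey2. Hes7 had 1 N-box and 2 E-boxes, and the N-box and an E-box there are the same 6 letters. In Hes6 the window shown had 2 N-boxes, and the other window 1 E-box. A match is a string of letters and not a measured binding site.

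Elsewhere in the Notch pathway the genes for ligands and receptors bore Suz12 most often. Of 11 genes, 8 had a peak (72.7%, 39.0 to 94.0), against 15.9% of all protein-coding genes. The ligand gene Dll4 led with a peak of 7692 bp. Dll1 (3289 bp) and Jag1 (2857 bp), which also encode ligands, the non-canonical ligand genes Dlk2 (2543 bp) and Dlk1 (1593 bp), and the receptor gene Notch1 (3187 bp) followed. The other receptor genes, Notch2, Notch3 and Notch4, had none. As with the family itself, the list holds genes with and without a peak side by side.

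The next list holds the nuclear complex that carries the signal to the Hes and Hey genes, its cofactors, and Rbpjl, a relative of Rbpj. Of these 10 genes, 1 had a peak (10.0%, 0.253 to 44.5), and it was Rbpjl (1407 bp). No gene of the complex itself had one. Ep300, Kat2a and Kat2b, which encode histone acetyltransferases, and the coactivator gene Maml1 had none. Rbpj, named after its value was seen, lay 341355 bp from the nearest peak. Receptor processing and glycosylation genes had 1 of 14 (7.14%, 0.181 to 33.9), the sugar transferase gene Lfng (4188 bp), and the protease genes Adam10 and Adam17 and the secretase subunit genes Aph1a and Aph1b had none. Both intervals include the 15.9% of all protein-coding genes, so neither share can be told from it.

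Modulators of the pathway had a peak at 5 of 13 genes (38.5%, 13.9 to 68.4). This interval includes the 15.9% of all protein-coding genes, so the share cannot be told from it. With only peaks at or above the median score the count was 3, against 8.71% of all protein-coding genes. Dtx1 (2695 bp), Neurl1a (2497 bp), Neurl1b (2383 bp) and Mib2 (1805 bp) encode ubiquitin ligases, and Nrarp (1701 bp) a feedback inhibitor of Notch. Dtx2, Dtx3, Dtx4 and Fbxw7 had none. The list of Groucho family genes, which includes partners of the Hes proteins, had 0 of 6 (up to 45.9%), an interval that also includes the 15.9%. The gene of this list closest to a peak was Tle5, at 76437 bp. In this list Tle1, Tle2, Tle3 and Tle4 were likewise without a peak.

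The 3 further bHLH-Orange repressor genes all had a peak (29.2 to 100%), against 15.9% of all protein-coding genes. Helt (6391 bp) was covered end to end, Bhlhe41 had 4987 bp, and Bhlhe40 had 688 bp, narrower than any peak of the family. The Bhlhe40 peak scored 159.75, near the lowest score of all peaks, 150.3. With only peaks at or above the median score the count was 2, against 8.71% of all protein-coding genes. Proneural activator genes, which Hes proteins repress, had 7 of 9 (77.8%, 40 to 97.2), against the same 15.9%. The median of their widest peaks was 4575 bp. Neurod2 (8589 bp), Neurog1 (5093 bp), Neurog2 (4581 bp), Atoh1 (4575 bp), Neurog3 (4110 bp) and Neurod1 (1798 bp) had the widest, and Neurod4 and Neurod6 had none. The first 5 of these were wider than the widest peak of the Hes and Hey genes, the 4060 bp at Hes2.

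Inhibitors of DNA binding and their E protein partners had 1 of 7 (14.3%, 0.361 to 57.9), near the 15.9% of all protein-coding genes. The gene with a peak was Id4 (2081 bp), while Id1, Id2, Id3 and Tcf12 had none. Segmentation clock and somite genes had 7 of 12 (58.3%, 27.7 to 84.8), against the same 15.9%. They were Lfng, Dll1, Mesp1 (2377 bp), Nrarp, Ripply2 (1684 bp), Dll3 (1513 bp) and Mesp2, while Axin2, Msgn1, Nkd1 and Ripply1 had none. Lfng, Dll1, Nrarp and Dll3 were already counted in the Notch lists. With only peaks at or above the median score the count was 4, against 8.71% of all protein-coding genes. Hes7, a bHLH gene of the same clock, was without a peak. Over all 9 lists, 29 of 81 distinct genes had a peak (35.8%, 25.4 to 47.2). Differences between lists were not tested.

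**Figure D5:**
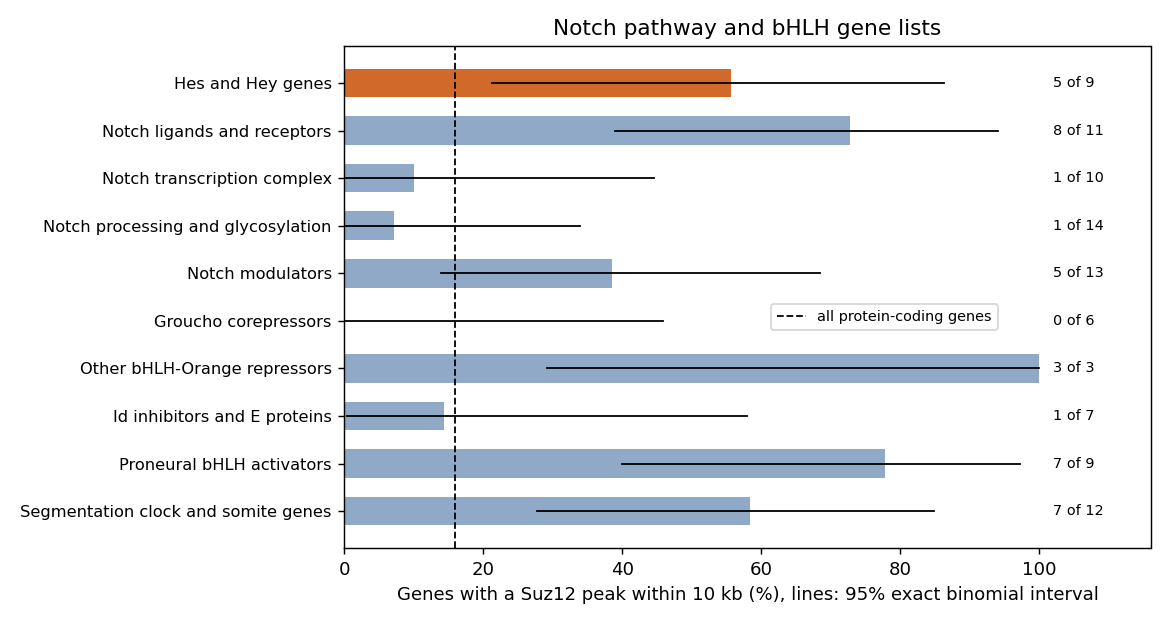
Percent of genes with a Suz12 peak within 10 kb in the Hes and Hey family (orange) and 9 related lists (blue), with exact 95% binomial intervals as black lines and the 15.9% of all protein-coding genes as a dashed line. The family, at 5 of 9, lies between the other bHLH-Orange repressors, at 3 of 3, and the Groucho corepressors, at 0 of 6. Its interval overlaps that of every list.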

How the data were processed

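Suz12 ChIP-seq was deposited for 1 wild-type library at 72 h as a peak list of 3373 rows. The tools were Bowtie and MACS and the build GRCm38 (mm10), per the submitters' processing notes; for their versions, parameters, control and pooling nothing is given in the sources used here. Each row of the deposited file gives a start, an end and a score of unstated scale, the authors' own value, used to describe and filter peaks. Depth is unknown. Starts were read as BED and are printed 1-based.

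Peaks were set against RefSeq GRCm38.p6 gene spans (outer ends; no exons) on 20 chromosomes with pandas 2.3.3 and numpy 2.4.6. Overlap code was tested on simulated data. Intervals are exact (Clopper-Pearson, SciPy 1.17.1). Strand came from promoter windows where present; the planned comparison of proteins was not run. All 85 symbols of the 9 lists matched; 1 further gene is not reported here. From each list up to 6 genes with a peak (by width) and 4 without (alphabetical) are named. Members and lists were chosen with earlier results of these data known. Alternatives were other distances, score limits, overlap and ownership rules, and joined peaks.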

Additional observations from a re-analysis of the deposited data

How the results depend on the processing

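Of 123 alternative values, 99 stayed within the limits set (1.5 times the value, or the interval of a share) and 24 moved. They are counts, shares and widths, which have no sign that could reverse. The count of 5 members with a peak was 5 when the peak had to overlap the gene, within 2.5 kb or 25 kb, with 50% of the peak inside the flanks and with peaks given to the nearest gene only. It was 7 within 50 kb, where Hes6 and Heyl joined, and 3 both at or above the median score and at or above double the lowest score, where Hey1 and Hey2 fell out and had no widest peak to give. The share of all protein-coding genes, 15.9%, became 12.3% with overlap, 13.1% within 2.5 kb, 20.8% within 25 kb, 27.8% within 50 kb, 8.71% at or above the median score, 12.2% at or above double the lowest and 12.5% for the nearest gene only. Counts of members under these alternatives carry no interval and were not tested against those shares. Of the 2 members with a start inside a peak, 1 remained, Hes5, under either score limit, with no share of all genes given beside it. The covered share of Hes3 was 32.2% at or above the median score and 100% (rounded) with joined peaks. The comparison with genes of the family's lengths was added after seeing the data. No paired analysis was possible because each group has 1 library and only wild-type peaks were analysed.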

Other observations

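Relatives of the same gene lie beside different members of the family; the genes in this paragraph were chosen after their values were seen. Espn, next to Hes2 on chromosome 4, was overlapped by 4 peaks that covered 26.3% of it, the highest scoring 1843.56. Its relative Espnl, on chromosome 1 near Hes6, was overlapped by 1 peak (score 408.84) over 6.28% of the gene, 65456 bp from Hes6. The circadian clock genes Per2 and Per1, neighbours of Hes6 and Hes7, had no peak within 10 kb, with the nearest 48885 and 125285 bp away.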
